A study of Mus musculus with 24 samples.

Results

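The core circadian clock genes Arntl, Clock, Npas2, Per1, Per2, Per3, Cry1, Cry2, Nr1d1 and Dbp were examined in liver, brain, heart and muscle of 6 male mice, on 24 one-colour microarrays. Every non-control probe whose transcript identifier belongs to one of these genes was taken, which gave 11 of the 55681 non-control probes and all 10 of the listed genes among 21368 named genes; Dbp had 2 probes and each other gene 1. The Dbp probe that was brighter over all 24 arrays represents that gene, except in the genotype comparison in brain, where the other probe was the brighter one. No expression value entered the rule that took the probes, but the genes were chosen with earlier results of these data known.

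The series compared WT mice with homozygous Rap1 knockin mice (Rap1 KI/KI, marked as RAP1 MUT in the labels), which carry the I312R substitution in RAP1, a telomere-binding shelterin protein. The knockin line was made by CRISPR/Cas9 editing and crossed back 4 times to C57BL6, which the study's methods name as C57BL/6N. Each tissue was measured in 3 WT and 3 Rap1 KI/KI mice, and each mouse gave all 4 tissues. Both mice with number 1, called WT1 and KI1 here, had reached 5 months, whereas WT2, WT3, KI2 and KI3 had reached 2 months. The time of day at which tissues were taken is not given in the sources used here, and nor is it given whether the line goes back to 1 founder.

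In the mammalian clock, ARNTL (also called BMAL1) pairs with CLOCK, or with its relative NPAS2, and the pair binds E-boxes to switch on the Per and Cry genes, Nr1d1 and Dbp. PER and CRY proteins then return to the nucleus and hold the activator back, which closes a loop of about a day. In a second loop NR1D1 (REV-ERB alpha) represses Arntl through ROR elements, and DBP is an output activator that binds D-boxes, among them those of Per genes. Transcripts of Arntl and of Dbp are known to peak at nearly opposite times of day in peripheral organs, so that the sampling time of a mouse bears on their levels.

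Promoter sequences, from 250 bases before to 50 bases after a transcription start, were given by RefSeq (GRCm38.p6) for 9 of the 10 genes, in 13 promoters, with no entry for Per2. They were searched on both strands for the E-box CACGTG, the D-box TTATGTAA or TTACGTAA and the ROR element, which NR1D1 binds; none of these motifs lies within another. The 4 promoters that hold a match are shown because each motif is the binding site of a protein made by the genes described here or by their close relatives. Capitals mark the matches, and positions count from 0 at the transcription start. The second Arntl promoter is at chr7:113207261-113207560 on the plus strand, the first Per1 promoter at chr11:69098699-69098998 on the plus strand, the Per3 promoter at chr4:151044616-151044915 on the minus strand and the Cry1 promoter at chr10:85185005-85185304 on the minus strand.
Arntl: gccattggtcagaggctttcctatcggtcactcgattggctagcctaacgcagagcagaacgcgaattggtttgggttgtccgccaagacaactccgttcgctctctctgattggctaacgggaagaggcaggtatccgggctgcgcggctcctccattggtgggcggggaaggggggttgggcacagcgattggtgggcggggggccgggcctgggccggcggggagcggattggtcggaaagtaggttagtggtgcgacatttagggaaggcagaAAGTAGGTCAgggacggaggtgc
Per1: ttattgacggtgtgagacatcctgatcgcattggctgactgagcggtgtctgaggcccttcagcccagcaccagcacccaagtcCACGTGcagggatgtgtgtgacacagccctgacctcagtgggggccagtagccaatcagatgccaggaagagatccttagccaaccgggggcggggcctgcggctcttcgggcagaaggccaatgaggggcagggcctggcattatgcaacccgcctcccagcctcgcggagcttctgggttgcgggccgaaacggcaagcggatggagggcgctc
Per3: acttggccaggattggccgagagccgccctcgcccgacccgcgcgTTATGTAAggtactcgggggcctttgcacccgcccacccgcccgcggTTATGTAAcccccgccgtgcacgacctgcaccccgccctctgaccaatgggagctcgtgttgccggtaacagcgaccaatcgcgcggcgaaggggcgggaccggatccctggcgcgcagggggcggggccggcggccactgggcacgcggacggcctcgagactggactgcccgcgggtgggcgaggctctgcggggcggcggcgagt
Cry1: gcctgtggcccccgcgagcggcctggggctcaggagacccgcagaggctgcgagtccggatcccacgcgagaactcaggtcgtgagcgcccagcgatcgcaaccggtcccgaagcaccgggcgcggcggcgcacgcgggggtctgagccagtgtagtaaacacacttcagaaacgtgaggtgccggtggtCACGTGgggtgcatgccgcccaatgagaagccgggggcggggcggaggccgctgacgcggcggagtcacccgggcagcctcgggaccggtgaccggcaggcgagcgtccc

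The ROR element match of Arntl begins at position 27, inside the first transcribed bases. The E-box matches of Per1 and Cry1 begin at positions -166 and -60, and the D-box matches of Per3 begin at positions -205 and -158. Among all 32851 RefSeq promoters of the same length, 7.15% hold the E-box, 1.06% a D-box and 0.435% a ROR element. A match is a description of letters in this window, and the arrays did not measure binding.

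Levels are given as log2 of the background-corrected probe signal minus the log2 75th percentile of all non-control probes on the same array, so that 0 is the brightness of the 75th percentile and 1 unit is a doubling in signal. Levels can be compared between arrays for 1 probe but not between probes. The 75th percentile lay between 471 and 1389 signal units, and 56.5% to 72.7% of probes were well above background on an array. Terf2ip, the gene of RAP1, gave a signal clear of background on each of the 24 arrays, and because the knockin is a point mutation its level does not check the labels. Summed over a marker list as multiples of the 75th percentile, hepatocyte markers reached 1463 to 2735 in liver and at most 110 elsewhere, neuron markers 227 to 381 in brain and at most 50.7 elsewhere, cardiomyocyte markers 1529 to 2750 in heart and at most 60.9 elsewhere, and skeletal myofibre markers 3425 to 4358 in muscle and at most 189 elsewhere. Oligodendrocyte markers did not single out brain. They summed to 58.5 to 153 in brain, 58.5 to 164 in heart, 52.8 to 101 in muscle and 12.2 to 23.3 in liver. Some arrays stood apart. Adipocyte markers summed to 239, 227 and 243 in the WT hearts and to 365, 281 and 629 in the KI1, KI2 and KI3 hearts, so that all Rap1 KI/KI hearts lay above all WT hearts, with 5 of the 6 listed genes clear of background on all 3 hearts of each genotype. Skeletal myofibre markers separated the same hearts the other way, at 78.1 to 189 in WT and 28.3 to 71.6 in Rap1 KI/KI. In muscle, neuron markers summed to 46.0 in KI3 against 11.5 to 18.2 in the others. Muscle KI1 had cardiomyocyte markers of 60.9 against 1.26 to 11.2 and neutrophil markers of 88.7 against 0.771 to 12.3. Adipocyte markers in muscle ranged from 189 in WT2 to 992 in WT1 and 1356 in KI2. Red cell markers, of which 2 of 3 listed genes were on the array, summed to 131 to 228 in WT muscles and to 266 to 400 in Rap1 KI/KI muscles, with no overlap. The mouse tests, the tissue counts and the correlations were also run without heart KI1, heart KI3 and muscle KI3, and, chosen after these sums were seen, without muscle KI1.

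**Figure D1:**
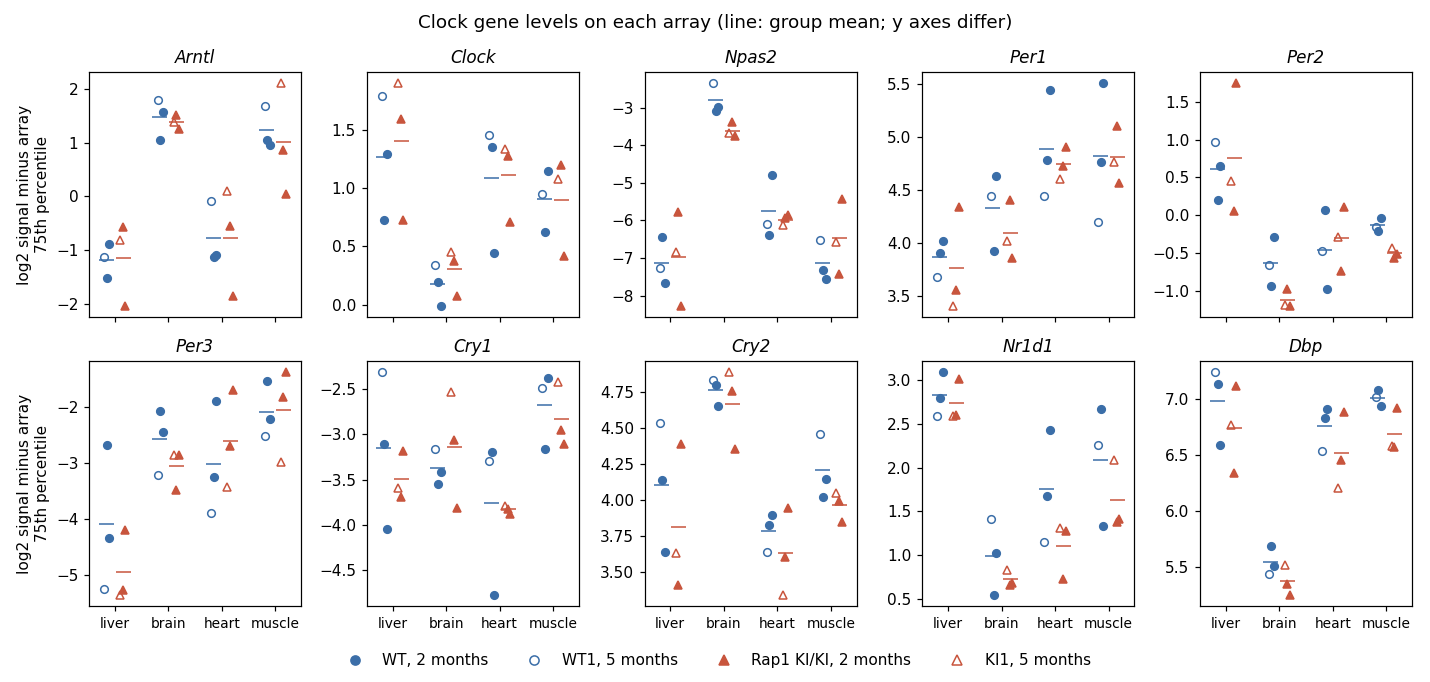
Level of each clock gene on each of the 24 arrays (y axis, log2 signal minus the array's 75th percentile; x axis, tissue), with WT as blue circles, Rap1 KI/KI as red triangles, 5-month-old mice as open symbols and lines at the means of 3 arrays. Arntl and Npas2 lay higher in brain than in liver on every array, while Nr1d1 and Dbp lay lower in brain than in liver on every array.

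The clock genes differed between tissues, and the activators did not share 1 order of tissues. Arntl was highest in brain and muscle, Clock was lowest in brain, and Npas2 was well above background on all arrays in brain only. Differences between tissues were tested over all 24 arrays with limma, with Benjamini-Hochberg adjustment over 42322 probes for each pair of tissues. In the comparison of brain with liver 8 of the 10 genes passed at adjusted p under 0.05, 4 higher and 4 lower in brain, while 79% of all tested probes passed. The counts were 7 for heart and brain (67.6% of probes), 6 for muscle and brain (70.1%), 5 for heart and liver (66.7%), 5 for muscle and liver (71.1%) and 2 for muscle and heart (43.4%). These shares are near or below those of all probes. Npas2 passed the filter through brain alone, so its comparisons set a signal against background; over the other 9 genes the counts were 7 for brain and liver, 6 for heart and brain, 5 for muscle and brain, 4 for heart and liver, 5 for muscle and liver and 2 for muscle and heart. Among those 9 genes the distance from the lowest to the highest tissue mean ranged from 1.00 log2 units for Per1 to 2.58 for Arntl, against a median of 2.43 over 18311 genes.

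Arntl, the activator without which the clock stops, had a mean of 1.43 ± 0.25 in brain (SD, n = 6), 1.12 ± 0.72 in muscle, -0.76 ± 0.73 in heart and -1.15 ± 0.53 in liver. The brain arrays ran from 1.06 over a median of 1.45 to 1.79, and the liver arrays from -2.03 over a median of -1.01 to -0.57, with no overlap. Brain exceeded liver by 2.58 log2 units (SE 0.36, a 5.98-fold difference in signal, limma adjusted p = 2.1e-06), and muscle exceeded heart by 1.88 (SE 0.36, limma adjusted p = 0.00027). Brain and muscle did not differ beyond their spread (-0.31 for muscle minus brain, SE 0.36, limma adjusted p = 0.458), nor did heart and liver (0.39, SE 0.36, limma adjusted p = 0.351).

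Clock, the DNA-binding partner of ARNTL, ran the other way in brain. Its mean was 1.34 ± 0.52 in liver, 1.10 ± 0.41 in heart, 0.90 ± 0.31 in muscle and 0.24 ± 0.18 in brain (SD, n = 6). Brain was 1.10 log2 units below liver (SE 0.24, a 2.14-fold difference, limma adjusted p = 0.000339), and the brain arrays, from -0.01 over a median of 0.27 to 0.45, overlapped those of heart and muscle by a small margin. Heart exceeded brain by 0.86 (limma adjusted p = 0.00364) and muscle exceeded it by 0.66 (limma adjusted p = 0.0185). Liver, heart and muscle did not differ from each other at adjusted p under 0.05, but with the mouse as a block muscle fell below liver (limma adjusted p = 0.0475 against 0.11 without the block).

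Npas2, which can take the place of CLOCK and is best known from the forebrain, had levels from -3.77 over a median of -3.24 to -2.35 in brain, well above background on 6 of 6 arrays. In liver, heart and muscle it was well above background on 1 of 6 arrays each, so that only a bound can be given. Brain was at least 6.08-fold higher than liver, at least 5.15-fold higher than heart and at least 3.96-fold higher than muscle, each tissue's bound being the mean over its arrays of the higher of the dimmest signal well above background and the probe's own signal.

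The Period genes, the repressor subunits that set the pace of the loop, fell into 2 patterns. Per1 was highest in muscle and heart, with means of 4.82 ± 0.45 and 4.81 ± 0.34, followed by brain at 4.21 ± 0.32 and liver at 3.82 ± 0.34 (SD, n = 6). Heart and muscle each exceeded liver by 1.00 log2 units (SE 0.23, limma adjusted p = 0.000783 and 0.000717), and both calls were lost with the slide as a block (limma adjusted p = 0.117 and 0.488). Muscle exceeded brain by 0.60 (SE 0.23, limma adjusted p = 0.0251), but this difference turned to -0.11 with quantile normalization. Brain and liver did not differ beyond their spread (0.40, SE 0.23, limma adjusted p = 0.121).

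Per2 was highest in liver and lowest in brain. Its mean was 0.68 ± 0.61 in liver, -0.32 ± 0.22 in muscle, -0.38 ± 0.44 in heart and -0.87 ± 0.35 in brain (SD, n = 6). Liver exceeded brain by 1.56 log2 units (SE 0.25, limma adjusted p = 1.09e-05), heart by 1.07 (limma adjusted p = 0.000859) and muscle by 1.00 (limma adjusted p = 0.00139), and brain, heart and muscle were not separated from each other at adjusted p under 0.05.

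Per3, whose promoter above holds both D-box matches, was lowest in liver, where Per2 was highest. Its mean was -4.51 ± 1.03 in liver, -2.82 ± 0.51 in brain, -2.81 ± 0.88 in heart and -2.08 ± 0.61 in muscle (SD, n = 6), well above background on all 24 arrays. Muscle exceeded liver by 2.43 log2 units (SE 0.44, a 5.4-fold difference, limma adjusted p = 6.57e-05), heart exceeded it by 1.70 (limma adjusted p = 0.00214) and brain by 1.69 (limma adjusted p = 0.00173). Brain, heart and muscle were not separated without a block. With the mouse as a block muscle exceeded brain by 0.74 at a limma adjusted p of 0.0498. With the slide as a block that difference turned to -0.89 (limma adjusted p = 0.321).

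The Cryptochromes, which bind PER proteins and repress the activator pair, had tissue means about 1 log2 unit apart at most. Cry2 had a mean of 4.71 ± 0.19 in brain, 4.08 ± 0.21 in muscle, 3.96 ± 0.46 in liver and 3.71 ± 0.23 in heart (SD, n = 6). Brain exceeded heart by 1.00 log2 units (SE 0.18, a 2.01-fold difference, limma adjusted p = 6.71e-05), liver by 0.76 (limma adjusted p = 0.000872) and muscle by 0.63 (limma adjusted p = 0.00465), and the other 3 tissues were not separated. With quantile normalization Cry2 gave 1.77 for brain minus liver, -1.59 for heart minus brain and -1.42 for muscle minus brain. The size of these Cry2 differences thus depends on the normalization. Cry1, whose promoter holds an E-box match, had means from -3.79 ± 0.56 in heart over -3.32 ± 0.60 in liver and -3.26 ± 0.45 in brain to -2.75 ± 0.36 in muscle. Of its 6 pairs of tissues 1 passed, muscle over heart by 1.04 (SE 0.30, limma adjusted p = 0.00868).

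Nr1d1, the repressor of Arntl, and Dbp, an output gene driven by the activator pair, were both lowest in brain. Nr1d1 ran from 2.59 over a median of 2.70 to 3.09 in liver and from 0.54 over a median of 0.76 to 1.42 in brain, with no overlap. Its liver level exceeded brain by 1.92 log2 units (SE 0.24, a 3.78-fold difference, limma adjusted p = 6.08e-07), heart by 1.35 (limma adjusted p = 6.93e-05) and muscle by 0.92 (limma adjusted p = 0.00237). Heart exceeded brain by 0.57 (limma adjusted p = 0.0457), a call that was lost with the mouse as a block (limma adjusted p = 0.0651). The tissue means of Nr1d1 fell in the order liver, muscle, heart, brain, and those of Arntl in the order brain, muscle, heart, liver. Muscle and heart were not separated in Nr1d1 (0.43 for muscle minus heart, SE 0.24, limma adjusted p = 0.168). Whether one order mirrors the other therefore cannot be told.

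Dbp was close to level in liver, muscle and heart, with means of 6.86 ± 0.36, 6.85 ± 0.22 and 6.64 ± 0.28, and lower in brain at 5.45 ± 0.15 (SD, n = 6). All 6 brain arrays, from 5.24 over a median of 5.47 to 5.69, lay below all 18 others. Liver exceeded brain by 1.41 log2 units (SE 0.16, limma adjusted p = 1.25e-07), muscle by 1.40 (limma adjusted p = 1.99e-07) and heart by 1.18 (limma adjusted p = 2e-06). With quantile normalization these differences shrank to 0.13, 0.35 and 0.39 log2 units and none passed (limma adjusted p = 0.491, 0.073 and 0.053). These calls of Dbp thus depend on the normalization. The second Dbp probe was also lowest in brain, with a mean of 5.63. Its means were 6.42 in liver, 6.51 in heart and 6.83 in muscle, so the order of these tissues and the distance of liver from brain depend on the probe.

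Tissues were spread over 3 slides. Liver shared slide 1 with brain WT1 and KI1, 4 brain and 4 heart arrays shared slide 2, and the other 2 heart arrays shared slide 3 with muscle. With the slide as a block the comparison of brain with liver still had 8 genes called, but heart and liver had 1 in place of 5 (Nr1d1) and muscle and liver 2 in place of 5 (Arntl, and Cry1, which had not passed without the block). The liver differences of Per1, Per2 and Per3 from heart and from muscle and that of Nr1d1 from muscle thus did not pass with that block, nor did those of Nr1d1 and Per1 between brain and heart or muscle. No slide held both arrays of liver and arrays of heart or muscle. Within slide 1 brain exceeded liver in Arntl by 2.74 log2 units and lay below it in Dbp by 1.39 and in Nr1d1 by 1.66, close to the pooled values. Per3 moved most with the slide: muscle exceeded liver by 2.43 without the block and by 0.59 with it (limma adjusted p = 0.642), and within slide 3 the 6 muscle arrays were 0.28 below the 2 heart arrays, against 0.73 above them over all slides. RNA of liver and brain was extracted with 1 kit and RNA of heart and muscle with another, so kit and tissue cannot be told apart across these pairs. In bulk tissue, fewer cells of a type and less RNA per cell cannot be told apart either.

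Between WT and Rap1 KI/KI mice no difference of a clock gene passed the test in any tissue. The comparison asks whether the Rap1 allele goes along with a change in the clock transcripts. It was fitted for each tissue on its 6 arrays with limma, over the probes that cleared background on 3 or more of them. This left 10 genes in brain and 9 in each other tissue, where Npas2 was too dim. In 37 comparisons, 0 had an adjusted p under 0.05 by limma and 1 had an unadjusted p under 0.05; of all probes 0% passed in liver, brain, heart and muscle, and 2.13%, 2.62%, 7.51% and 2.47% had an unadjusted p under 0.05. Differences ran from -0.86 for Per3 in liver to 0.41 for Per3 in heart. Their 95% intervals reached from 0.42 to 1.52 log2 units to each side, so that differences within those limits cannot be told from 0 here.

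Most differences lay below 0: 28 of 37 were lower in Rap1 KI/KI and 9 were higher. These 37 values share 6 mice and, within a tissue, the same 6 arrays, and are not independent. Of all tested probes 51.5% were lower in liver, 58.1% in brain, 52.1% in heart and 60.3% in muscle. The median over the genes was -0.10 in liver, -0.19 in brain, -0.07 in heart and -0.23 in muscle, beside medians over all tested probes of -0.01, -0.05, -0.02 and -0.07. The brain value is -0.21 with the Dbp probe used in the other tissues, which gave -0.17 in place of -0.13. In 4 comparisons, 2 in brain and 2 in muscle, the 3 Rap1 KI/KI arrays all lay below the 3 WT arrays. Among all probes 3.74% did so in brain and 4.09% in muscle, and 3.07% in liver and 8.69% in heart, where 0 of 9 genes did. Counted in both directions, the genotypes did not overlap in 5.85% of probes in liver, 7.74% in brain, 14.7% in heart and 6.45% in muscle. Without overlap the exact permutation test of 3 against 3 arrays always gives its lowest p, 0.1 (two-sided). It therefore adds nothing for these 4, which were picked for not overlapping.

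**Figure D2:**
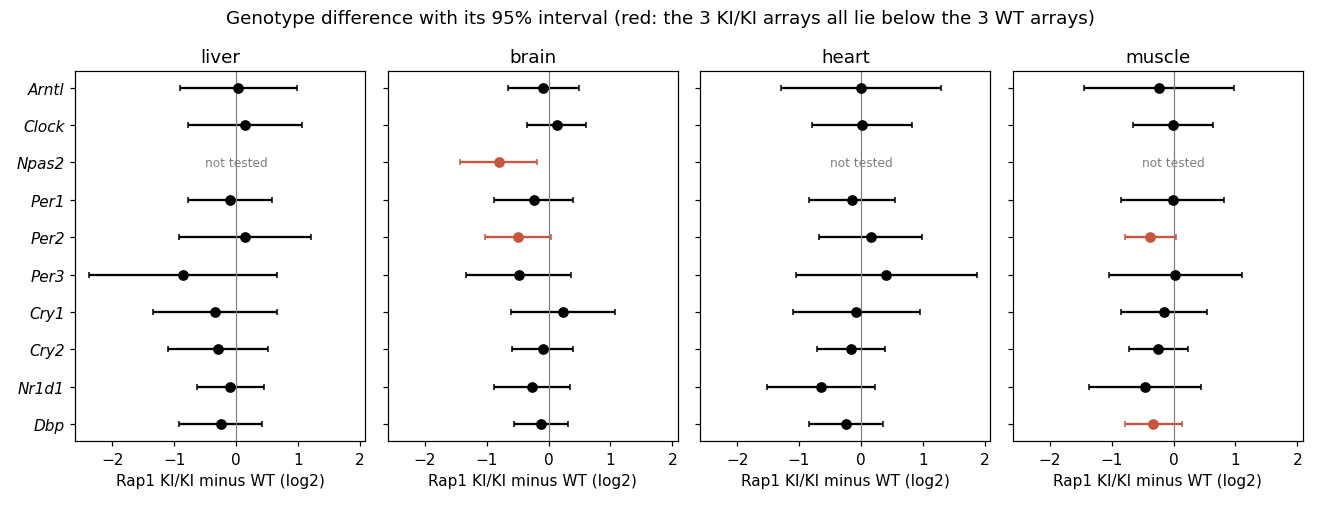
Difference between Rap1 KI/KI and WT (x axis, log2 units) for each clock gene (y axis) in each tissue, with bars for the 95% interval from the limma fit on 6 arrays. Red points are the 4 comparisons in which all 3 Rap1 KI/KI arrays lay below all 3 WT arrays; 28 of 37 points lie left of 0.

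Npas2 in brain was the 1 comparison with an unadjusted p under 0.05. It measured -2.35, -3.09 and -2.98 in WT1, WT2 and WT3 and -3.68, -3.39 and -3.77 in KI1, KI2 and KI3. The Rap1 KI/KI mean was 0.81 log2 units lower (SE 0.26, 95% interval -1.43 to -0.19, 1.75-fold, limma unadjusted p = 0.0188, adjusted p = 1.00). The highest array, WT1, came from slide 1 with KI1; on that slide the difference was -1.34, and on slide 2, with 2 mice a genotype, it was -0.54.

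Per2 in brain measured -0.66, -0.94 and -0.29 in the WT mice and -1.18, -0.98 and -1.20 in the Rap1 KI/KI mice, and the nearest arrays of both genotypes, WT2 and KI2, were 0.04 apart. The difference was -0.49 (SE 0.22, limma adjusted p = 1.00), with -0.52 on slide 1 and -0.47 on slide 2. In muscle Per2 measured -0.15, -0.21 and -0.03 in the WT mice and -0.44, -0.56 and -0.51 in the Rap1 KI/KI mice. These 6 arrays formed 2 tight groups, 0.37 apart (SE 0.18, limma adjusted p = 0.939), and without muscle KI3 the difference was also 0.37. In liver and heart, by contrast, KI3 had the highest Per2 level of the 6 mice and the genotypes overlapped, with differences of 0.14 and 0.16.

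Dbp in muscle measured 7.02, 7.08 and 6.94 in the WT mice and 6.58, 6.57 and 6.92 in the Rap1 KI/KI mice, a difference of -0.32 (SE 0.19, limma adjusted p = 0.939), and KI3 was within 0.02 of WT3. The red cell sums given above separated the same 6 muscles by genotype, and their part in the Per2 and Dbp differences was not tested. The second Dbp probe had the same direction at -0.24 but its genotypes overlapped. Whether the genotype difference itself varied between tissues was tested with the 3 interaction terms over all 24 arrays: 0 of 10 genes passed by limma and 0 had an unadjusted p under 0.05, where 0% and 2.92% of probes did.

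For some of the genes 1 mouse deviated in the same direction in all its tissues. For each array the deviation from the mean of its 3 arrays of 1 tissue and genotype was taken, so that neither tissue nor genotype contributes. The slide can contribute: brain WT1 and KI1 lay on another slide than the other brains, and heart WT3 and KI3 on another than the other hearts, so mouse and slide cannot be told apart there, whereas all liver arrays shared a slide and all muscle arrays shared another. Within a group the 3 deviations sum to 0. Arntl was below its group mean in KI3 in 4 of 4 tissues, by 0.90 log2 units in liver, 0.13 in brain, 1.09 in heart and 0.97 in muscle. In KI1 it was above it in 4 of 4, by 0.33, 0.01, 0.87 and 1.10, and in WT1 in 4 of 4, by 0.05, 0.32, 0.68 and 0.45. WT2 was below in all 4 tissues, with a mean of -0.32. Averaged over tissues Arntl was 0.77 below in KI3 and 0.58 above in KI1.

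**Figure D3:**
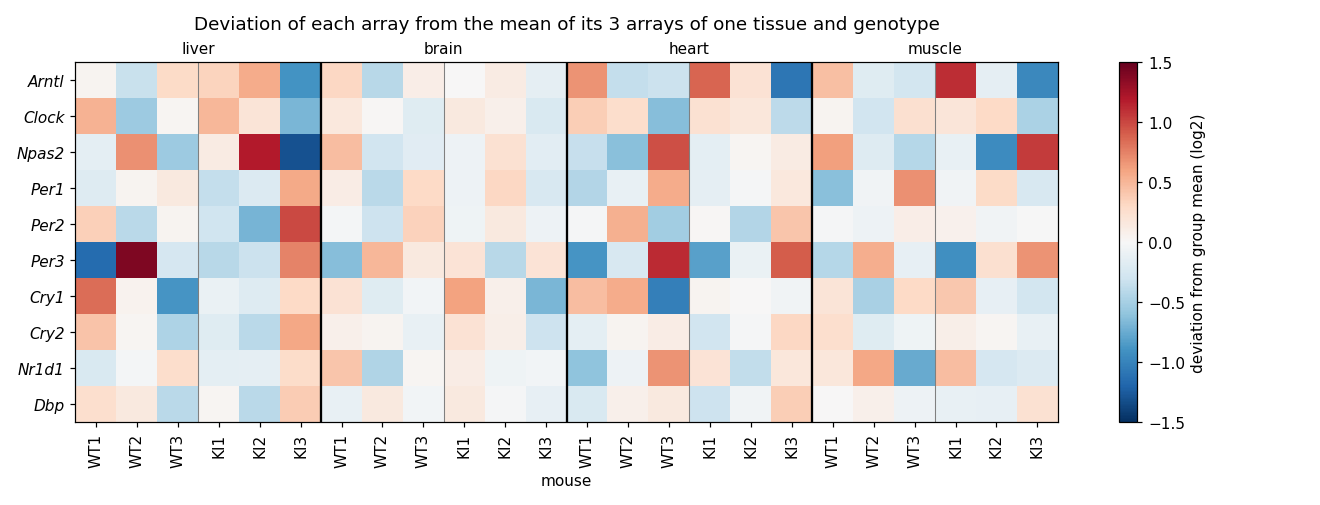
Deviation of each array (columns, by tissue and mouse) from the mean of its 3 arrays of 1 tissue and genotype, in log2 units from blue (lower) to red (higher), for each clock gene (rows). In KI3 the squares of Arntl and Clock are blue and those of Per3 red in all 4 tissues.

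Clock deviated with Arntl in these mice: it was above the group mean in 4 of 4 tissues of WT1, KI1 and KI2 and below it in 4 of 4 tissues of KI3, with a mean of -0.44 in KI3. Per3 ran the opposite way, above in 4 of 4 tissues of KI3 with a mean of 0.63, and below in 4 of 4 tissues of WT1 with a mean of -0.77. WT1 and KI1 are the mice that were 5 months old, and age and mouse cannot be told apart in them. Per1 was above in 4 of 4 tissues of WT3 and below in 4 of 4 of KI1, Cry1 was above in 4 of 4 of WT1, and Dbp was above in 4 of 4 of WT2 and below in 4 of 4 of KI2. Nr1d1 was below in 4 of 4 tissues of KI2 alone, with a mean of -0.21. In the limma F test of mice described next, the unadjusted p was 0.0671 for Per1, 0.155 for Cry1, 0.312 for Dbp and 0.822 for Nr1d1. How often other genes keep 1 sign in all tissues of a mouse was not counted, so these signs are a description.

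A limma F test over all 24 arrays, with 4 terms for the mice within genotype, asked whether arrays of 1 mouse deviate together. Of the 10 genes 0 passed at adjusted p under 0.05, as against 0.00945% of all probes, and 3 had an unadjusted p under 0.05, as against 8.4% of all probes. These were Arntl (F = 7.30, limma unadjusted p = 0.00188, adjusted p = 0.421), Per3 (F = 5.27, unadjusted p = 0.00769, adjusted p = 0.442) and Clock (F = 4.00, unadjusted p = 0.0214, adjusted p = 0.526). Without KI3 the unadjusted p was 0.0652 for Arntl, 0.0373 for Per3 and 0.306 for Clock, and without WT1 that of Per3 was 0.0892, while that of Clock was 0.0555 without KI1, so that leaving out KI3 moved Arntl and Clock past 0.05. Heart KI1, heart KI3 and muscle KI3 are among the arrays with the largest Arntl deviations. Heart KI1 and KI3 had the highest adipocyte sums of the hearts, and muscle KI3 had the highest neuron sum of the muscles. Muscle WT1 and KI2, with the highest adipocyte sums of all arrays (992 and 1356), are not among these 3 arrays. Without these 3 arrays the unadjusted p was 0.0744 for Arntl, 0.0535 for Per3 and 0.146 for Clock. Without muscle KI1, the array with the largest Arntl deviation and high cardiomyocyte markers, it was 0.00383 for Arntl, 0.0142 for Per3 and 0.0304 for Clock. With the slide as a block it was 0.00334 for Arntl, 0.00631 for Per3 and 0.0954 for Clock. Liver KI3, where Arntl was 0.90 below its group mean, had summed adipocyte and neuron markers of 7.06 and 9.80, inside the range of the other livers. Its hepatocyte markers summed to 1463, the lowest of the livers, against 1813 to 2735 in the others. The part of cell composition in this deviation was not tested.

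Across the 6 mice, the correlation of Arntl deviations between pairs of tissues lay between 0.35 (brain and muscle) and 0.95 (heart and muscle). For Per3 it lay between 0.28 and 0.81 and for Clock between 0.10 and 0.92, positive in all pairs of these 3 genes. The other 7 genes had both signs, for example from -0.92 to 0.61 for Per2 and from -0.64 to 0.78 for Nr1d1. Each of these correlations rests on 6 mice and is a description.

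Spread between mice also differed by gene and tissue. Pooled over all groups the SD between mice was 0.81 log2 units for Per3 and 0.66 for Arntl, which placed them at percentiles 87.5 and 78.9 of 18311 genes, and 0.30 for Cry2 and 0.25 for Dbp, at percentiles 33.7 and 19.9. The median gene had an SD of 0.38. Npas2, at background outside brain, had an SD of 0.32 in brain, at percentile 57.3. Per2 changed rank most: its SD was 0.68 in liver, at percentile 90.7, and 0.08 in muscle, at percentile 0.847. Brain was the quietest tissue for the activators, with 0.28 for Arntl and 0.19 for Clock, against 0.82 and 0.46 in heart. With normexp background correction the SD of Per3, a dim probe, was 0.54 in place of 0.81.

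In some pairs of genes the deviations ran together or in opposite directions. Over the 24 arrays, which share mice, tissues and slides and are therefore not independent, Pearson's r was -0.76 between Arntl and Dbp, -0.77 between Arntl and Per3, -0.85 between Clock and Per3, 0.64 between Arntl and Clock and 0.79 between Cry2 and Dbp. These are descriptions, 5 of 45 pairs, and were picked with their values known. Arntl and Dbp were opposed in each tissue on its own, with r of -0.80 in liver, -0.56 in brain, -0.99 in heart and -0.68 in muscle over 6 arrays. Arntl and Per3 were likewise opposed in each, from -0.65 in liver to -0.91 in muscle. All liver arrays lay on slide 1 and all muscle arrays on slide 3, so these values are also within a slide. Cry2 and Dbp went together in liver (0.94), brain (0.64) and heart (0.99) and not in muscle (-0.46).

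**Figure D4:**
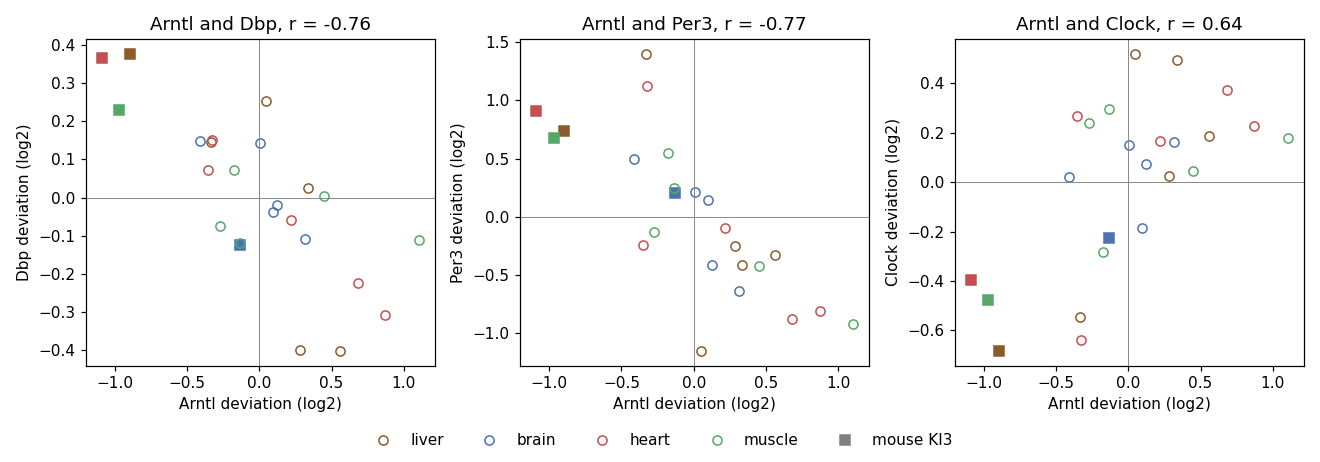
Deviation of Arntl (x axis) against those of Dbp, Per3 and Clock (y axes), all in log2 units, with 1 point an array coloured by tissue and the mouse KI3 as filled squares. Arrays with lower Arntl tend to have higher Dbp and Per3 and lower Clock, and 3 of the 4 KI3 arrays lie at the low end of Arntl.

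KI3 bears on some of these pairs. Without it r between Arntl and Clock was 0.27 in place of 0.64, and r between Arntl and Dbp was -0.54 in place of -0.76, while Arntl and Per3 stayed at -0.71 and Cry2 and Dbp at 0.78. Without heart KI1, heart KI3 and muscle KI3 the values were -0.64 for Arntl and Dbp, -0.72 for Arntl and Per3 and 0.52 for Arntl and Clock. Without muscle KI1 they were -0.81, -0.74 and 0.67. The part of other cells in these values was not tested. Nr1d1, the repressor of Arntl in the second loop, had r of 0.06 with Arntl, and its sign varied between tissues, from 0.90 in brain to -0.51 in liver.

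**Figure D5:**
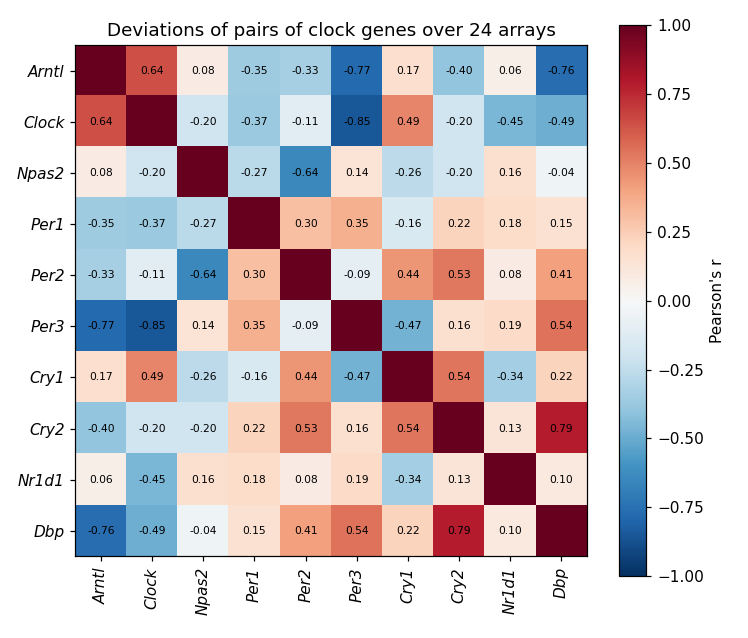
Pearson's r of the deviations of each pair of clock genes over 24 arrays, from blue (-1) to red (1). Arntl and Clock are positive with each other and negative with Per3 and Dbp; the values of Npas2 come mostly from tissues where it was at background.

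The 5 genes most like each of 4 clock genes were listed by the correlation of deviations over the 24 arrays, out of 18310 genes with 1 probe each. For Dbp they were Zc3h6 (0.91), Rad51d (0.86), Tef (0.82), Usp2 (0.79) and Cry2 (0.79), so that 1 clock gene, Cry2, and Tef, a PAR bZIP factor of the same family as DBP, stood in the list. At the other end of that ranking Arntl was 18306 of 18310. For Arntl the list was Hsph1 (0.91), Sec63 (0.86), Ddx21 (0.85), Psmd11 (0.85) and Traf6 (0.85), with Clock at rank 615. For Nr1d1 it was Brms1, Gmppa, Fbxw8, Aaas and Pmf1, from 0.88 to 0.85, and for Per2 it was Zkscan4, Zfp108, Slc25a27, Zfp647 and Ntf3, from 0.89 to 0.83, neither with a clock gene in it.

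Other genes of the pathway were taken in 3 lists: 11 of the secondary loop (among them Nr1d2, Nfil3, Tef, Hlf and Ciart), 11 of clock protein turnover (casein kinases, Gsk3b, F-box proteins, Usp2, Timeless and Tipin) and 8 outputs (Noct, Wee1, Alas1, Nampt, Gys2, Elovl3, Por and Lpin1). In the comparison of genotypes 0 of them passed in any tissue by limma. In heart a limma unadjusted p under 0.05 was found for 1 secondary loop gene of 11 tested, 1 turnover gene of 10 and 0 of 7 outputs. Of all probes in heart 7.51% had one. Of the 11 secondary loop genes 8 were lower in Rap1 KI/KI in liver, 7 in brain, 8 in heart and 8 in muscle. Their medians were -0.18, -0.05, -0.18 and -0.30. Of the turnover genes 6 of 11 were lower in liver, 5 of 11 in brain, 9 of 10 in heart and 8 of 10 in muscle. Among the outputs 6 of 7 were higher in brain and 5 of 7 in muscle, with medians of 0.13 and 0.15. In liver 4 of 8 outputs were higher and in heart 3 of 7. The shares of all probes are given above.

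Ciart, a repressor of the activator pair, measured 0.78, 1.14 and 1.20 in WT hearts and 0.07, -0.27 and 0.59 in Rap1 KI/KI hearts, where all 3 were lower (-0.91, SE 0.28, limma unadjusted p = 0.0150, adjusted p = 0.646). Timeless, a replication fork protein with a disputed part in the mammalian clock, was 0.61 lower in Rap1 KI/KI hearts (SE 0.22, limma unadjusted p = 0.0298, adjusted p = 0.646). Without heart KI1 and KI3, which leaves KI2 alone, assumed to vary like the WT hearts, the difference was -1.31 for Ciart and -0.29 for Timeless (limma adjusted p = 1.00 each). Adipocyte and skeletal myofibre markers also separated the hearts by genotype, as given above, and the part of other cells in the heart values was not tested.

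The genes of these lists whose mean deviation ranged most widely between mice were Noct (1.49 log2 units), Gys2 (1.15) and Ciart (1.00). Ciart in liver was 1.93 in KI3, the highest of the 6 mice, against -0.69 in KI1, the lowest. Its mean deviation was 0.59 in KI3, where that of Arntl was 0.77 below 0, and r between both genes was -0.54. Gys2, the glycogen synthase of liver, ranged in heart from -5.22 in WT3 to 0.24 in KI3, with -0.82 in KI1. The KI3 and KI1 arrays had the highest adipocyte sums among the hearts, and the part of fat cells was not tested. The Gys2 probe was well above background on 5 of 6 heart arrays. Its WT3 value lay near the dimmest signal well above background on that array, -5.27. Nfil3, a repressor at D-boxes, had an unadjusted p of 0.0418 in the F test of mice (limma adjusted p = 0.575), with a mean deviation of -0.47 in KI3, the lowest of the 6.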

How the data were processed

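RNA of 4 tissues from 6 mice was hybridised to Agilent one-colour (Cy3) mouse arrays. The authors deposited Feature Extraction 12.0.3.1 scanner files, whose processed signal is a background-subtracted intensity on a linear scale, and a value table of scores; a z score of the log10 intensity within each array, computed here, lay within 0.01 of the deposited score on all 24 arrays. The study's methods name no test for the arrays. The number of arrays limits the precision.

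Control spots were removed, spots of 1 probe averaged, and log2 intensity minus the array's log2 75th percentile was used. Probes had to be well above background on 3 of 6 arrays (of a tissue, or of any 1 tissue for fits on 24 arrays) and to have a value on every array. Tests used limma 3.58.1 in R 4.3.3, lmFit and eBayes, with Benjamini-Hochberg adjustment over all tested probes; it was tested on simulated data with known changes. Of a gene's probes the one brightest over the arrays of the fit was used. Described with no test were the pooled SD, Pearson correlations of deviations from group means, and promoter motifs.

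Groups came from the labels' tissue and genotype. Animal numbers in the titles tie the tissues of a mouse, so the numbers pair the samples: over 42322 probes the correlation of deviations between 2 tissues of 1 mouse ran from -0.22 to 0.26 with a median of 0.05 over 36 pairs, and the consensus correlation was 0.026. Replicates are mice.

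Named genes were all 10 clock genes in every tissue; in the genotype comparison those with no overlap of genotypes or an unadjusted p under 0.05; the 5 genes most like Arntl, Nr1d1, Dbp and Per2; and from the other lists those with an unadjusted p under 0.05 and the 3 with the widest range between mice. The genes and lists were chosen with earlier results of these data known, so no list is independent support. Alternatives were normexp (offset 50) on median foreground and background intensities, since mean foreground was not used here, quantile normalization, the deposited table, other filters, blocks, age as a covariate, leaving out mice or arrays, robust eBayes and probe averaging. Proteins and a Per2 promoter were not used here. A result of 1 gene of the secondary loop list is not reported here.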

Additional observations from a re-analysis of the deposited data

Results flagged for a closer look

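Noct, a gene with a daily rhythm in many organs, measured -2.66 in brain WT1 against 3.00 to 3.41 in the other 5 brains, although the probe was well above background on all 6. The gap to the nearest array was 0.93 of the whole range, above Dixon's 95% critical value for 6 samples. It was the 1 such array among 50 sets of 6 arrays tested over the genes named, and chance alone marks about 1 in 20. In its other tissues the same mouse had between 2.47 in muscle and 4.06 in liver, and its brain array accounts for the wide range of Noct between mice. The cause was not tested.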

How the results depend on the processing

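No clock gene passed in the genotype, interaction or mouse tests under any alternative run, with counts of 0 throughout, and the 4 non-overlapping genotype differences kept their direction, on the log2 scale Npas2 in brain between -0.95 and -0.57 and Per2 in muscle between -0.41 and -0.29. Of the tissue counts, the slide as a block gave 1 for heart and liver and 2 for muscle and liver, against 5 each. WT arrays alone, with 12 arrays in place of 24, gave 3 for muscle and liver against 5, and 3 for muscle and brain against 6. Without heart KI1, heart KI3 and muscle KI3 the count for muscle and heart was 1 against 2. Per1 in muscle minus brain was -0.11 with quantile normalization against 0.60, and Dbp lost its calls there. Cry2 in brain minus liver was 1.77 with that normalization against 0.76. With the mouse as a fixed replicate block the paired counts were 8 for brain and liver, 5 for heart and liver, 6 for muscle and liver, 6 for heart and brain, 7 for muscle and brain and 2 for muscle and heart, and the calls it changed are given with the genes. For Clock and Per3, r was -0.73 under normexp against -0.85. Without muscle KI1, an alternative chosen after seeing the data, no count of clock genes moved. The causes were not tested.

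Leaving out 1 mouse at a time gave 8 to 9 genes for brain and liver, 4 to 5 for heart and liver, 5 to 5 for muscle and liver, 5 to 7 for heart and brain, 4 to 7 for muscle and brain and 2 to 4 for muscle and heart (4 without KI3). The correlation ran from 0.27 to 0.72 for Arntl and Clock, from -0.82 to -0.54 for Arntl and Dbp, from -0.86 to -0.69 for Arntl and Per3, from -0.90 to -0.81 for Clock and Per3 and from 0.72 to 0.84 for Cry2 and Dbp. Quantile normalization moved the median probe by 0.07 in liver and brain. Of all alternatives, 53 values of single genes lost their call and 654 kept it or stayed uncalled. Npas2 outside brain was at background, where the arrays give a bound only.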
